A study of Homo sapiens with 6 samples.

Results

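The Notch genes described here are the receptors NOTCH1, NOTCH2 and NOTCH3, the ligands JAG1, JAG2 and DLL1, and the target genes HES1, HEY1 and HEYL. They were taken by symbol from the 23355 entries of the count table that carry a gene symbol, and all 9 members were found. RNA was sequenced from HFL-1, an established line of human fetal lung fibroblasts, after transfection with a non-targeting siRNA (siNTC) or with either of 2 siRNAs against TAZ, named siTAZ #1 and siTAZ #2. Each siRNA was transfected in duplicate and RNA was taken 48 h later, which gives 2 libraries per group and 6 in all from a single cell line. Of the 9 members, 8 passed the filter on low counts and were tested among 14053 genes. DLL1 did not pass it, and is given by its counts only.

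Notch receptors are membrane proteins that bind Jagged and Delta-like ligands on a neighbouring cell. Binding exposes the receptor to ADAM proteases and then to gamma-secretase, which frees its intracellular part. This fragment enters the nucleus, joins the DNA-binding protein RBPJ and a Mastermind coactivator, and switches on genes such as HES1, HEY1 and HEYL, which code for transcriptional repressors. In the lung, Notch signalling is known for its part in airway cell fates, in blood vessel growth and in the mural cells of vessels, and it has been linked to myofibroblasts.

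The targeted gene was measured first. WWTR1, which codes for TAZ, had 132 and 131 CPM with siNTC (read counts scaled to a common library size with TMM factors), 26.4 and 28.4 with siTAZ #1, and 46.1 and 43.1 with siTAZ #2. All 4 siTAZ libraries lay below both controls. WWTR1 fell by 2.26 ± 0.10 on the log2 scale with siTAZ #1 (SE, n = 2 per group, FDR = 0.000617) and fell by 1.56 ± 0.10 with siTAZ #2 (FDR = 0.000681). Library totals ran from 15648055 to 32078188 counts. In siTAZ #1 replicate 2 the counts were nearly missing from RANGAP1 on chromosome 22 to the end of Y, where they made up 0.246% of the library against 3.58% to 3.74% in the others. L3MBTL2, which lies before RANGAP1, had 71.7 and 66.0 CPM in siTAZ #1 replicates 1 and 2. RANGAP1 itself had 263 and 65.0 CPM, and ZC3H7B, which lies after it, had 183 and 1.32. No member lies there, but the common dispersion of the fit was 0.0807 with the 576 tested genes of that stretch and 0.0163 without them. Log2 fold changes, SE and FDR values come from 1 quasi-likelihood fit of edgeR to all 6 libraries, with Benjamini-Hochberg adjustment over all genes tested.

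Among the receptors NOTCH2 and NOTCH3 changed with both siRNAs, among the ligands JAG1 changed with siTAZ #2, and among the targets HES1 changed with siTAZ #1. With siTAZ #1, HES1 was 8.82-fold higher than with siNTC and NOTCH3 1.75-fold higher, while NOTCH2 was 1.37-fold lower. With siTAZ #2, NOTCH3 was 2.92-fold higher, JAG1 was 3.44-fold lower and NOTCH2 was 1.27-fold lower. Of the 8 tested members, 3 passed FDR 0.05 with siTAZ #1, where 20.6% of all genes tested did, and 3 passed with siTAZ #2, where 28.5% of all genes did. NOTCH2 and NOTCH3 were the 2 members that passed in the same direction with both siRNAs, as 9.23% of all genes did (5.49% higher and 3.74% lower). In the direct comparison of the siRNAs 4 of 8 passed, against 28.6% of all genes: HES1, HEY1 and JAG1 were higher with siTAZ #1, and NOTCH3 was higher with siTAZ #2. Both comparisons with siNTC use the same 2 control libraries. The median log2 fold change of the tested members was 0.64 with siTAZ #1 and 0.30 with siTAZ #2, against 0.02 and 0.01 over all genes tested. The count with siTAZ #1 was 5 without the genes from RANGAP1 onwards. Both this count and the count between the siRNAs also moved when some of the libraries were left out. The share of all genes called under these alternatives was not counted.

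**Figure D1:**
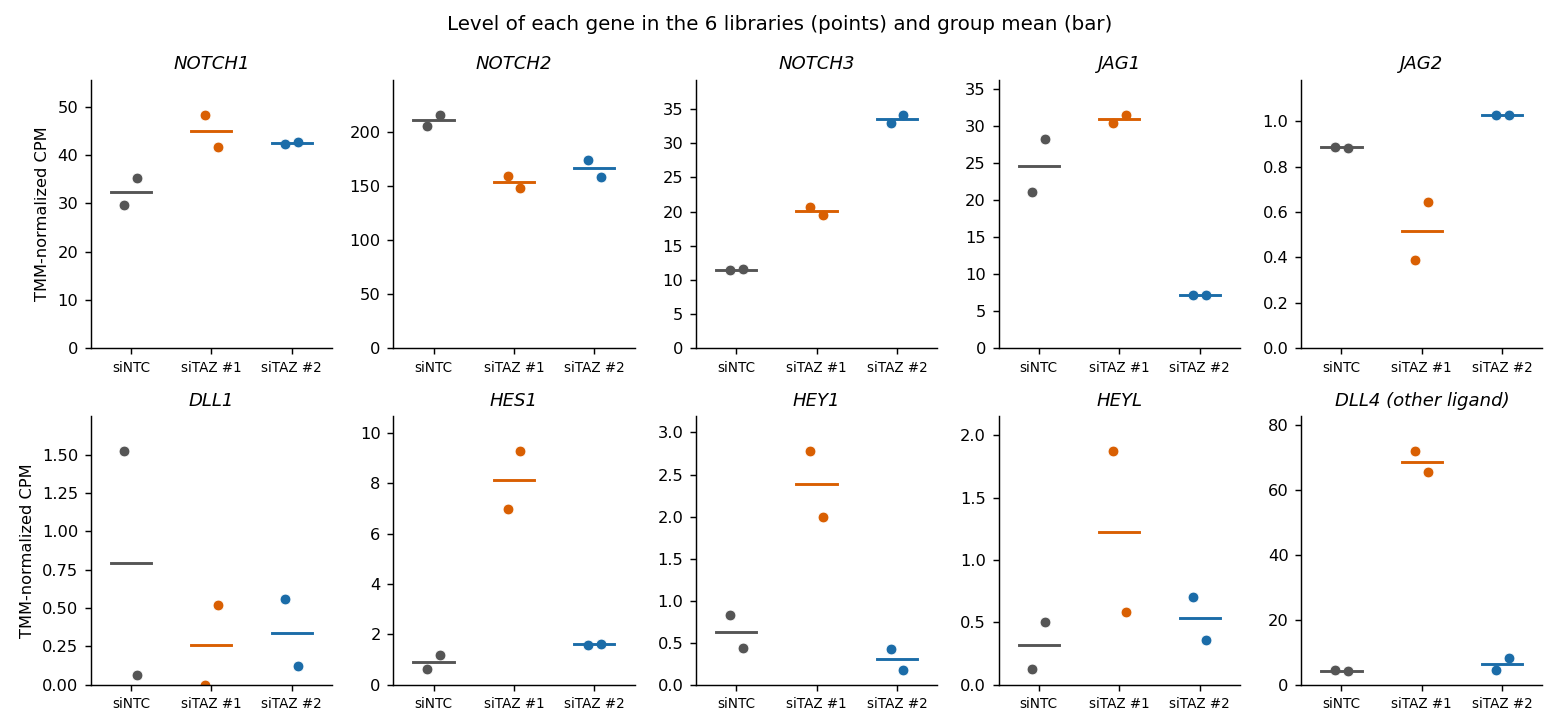
Level of the 9 members and of DLL4 in each library, in TMM-normalized CPM on linear axes from 0. Points are libraries, bars are group means, and siNTC is grey, siTAZ #1 orange and siTAZ #2 blue. HES1 and DLL4 stand high only in the siTAZ #1 libraries, at 6.97 and 9.26 CPM and at 71.8 and 65.6 CPM, and JAG1 is lowest in the siTAZ #2 libraries, at 7.10 and 7.19 CPM.

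Promoters of target genes and ligands are shown because RBPJ, through which Notch acts, and TEAD factors, through which TAZ acts, each bind a short core motif. Of the 9 members, 7 had a promoter window in RefSeq (GRCh38.p14, 250 bases before to 50 bases after the annotated start), and DLL1 and HEY1 had none. The windows were searched on both strands for TGGGAA (core of the RBPJ motif) and GGAATG (core of the TEAD motif). TGGGAA was found in 2 of the 7 windows, those of HES1 and HEYL, and in 24.0% of 35116 windows of the same length. GGAATG was found in none of the 7 and in 14.0% of all windows. The 250 bases before the start follow for HES1 and HEYL, the members with a match, and for DLL4 and JAG1, the ligands that passed the test, read 5′ to 3′ along the gene, with matches to either core in capitals.
HES1 (chr3:194135898-194136147, plus strand): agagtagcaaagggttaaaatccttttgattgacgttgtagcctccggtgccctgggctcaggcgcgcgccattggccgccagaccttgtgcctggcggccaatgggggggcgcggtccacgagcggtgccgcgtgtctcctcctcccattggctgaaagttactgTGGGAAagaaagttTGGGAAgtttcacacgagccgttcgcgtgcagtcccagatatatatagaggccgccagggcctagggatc
HEYL (chr1:39639644-39639893, minus strand): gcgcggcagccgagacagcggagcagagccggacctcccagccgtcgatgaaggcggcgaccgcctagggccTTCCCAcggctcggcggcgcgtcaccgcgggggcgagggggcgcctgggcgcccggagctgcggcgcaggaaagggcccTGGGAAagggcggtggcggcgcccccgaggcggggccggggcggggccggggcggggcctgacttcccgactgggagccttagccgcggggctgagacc
DLL4 (chr15:40929090-40929339, plus strand): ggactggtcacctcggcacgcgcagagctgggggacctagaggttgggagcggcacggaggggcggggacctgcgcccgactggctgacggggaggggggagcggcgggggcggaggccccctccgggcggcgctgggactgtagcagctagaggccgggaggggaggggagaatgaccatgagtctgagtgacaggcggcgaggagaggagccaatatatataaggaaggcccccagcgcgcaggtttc
JAG1 (chr20:10674000-10674249, minus strand): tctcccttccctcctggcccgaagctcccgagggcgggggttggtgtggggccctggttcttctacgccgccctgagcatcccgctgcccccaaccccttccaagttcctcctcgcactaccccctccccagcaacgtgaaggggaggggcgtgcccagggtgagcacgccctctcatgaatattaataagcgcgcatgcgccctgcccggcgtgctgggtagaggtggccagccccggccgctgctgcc

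In HES1 both matches to TGGGAA lie on the gene's strand, starting 84 and 70 bases before the start. Sites that differ from the core in any letter were not searched for, so the arrangement of RBPJ sites cannot be read from these matches. In HEYL a match on the opposite strand begins 178 bases before the start and a match on the gene's strand 99 bases before it. A longer form of the core, GTGGGAA, occurs once in each of these 2 genes and in 6.25% of all windows. The N box CACNAG, the kind of site that HES repressors bind, was found in the windows of 4 of the 7 members, NOTCH1, NOTCH2, NOTCH3 and HES1, and in 38.0% of all windows. HES1 held 4 of these matches, and its product is known to repress its own gene through N boxes. The DLL4 and JAG1 windows held neither of the cores marked in capitals. These matches are letters in a window, and binding was not measured.

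Compared per length of exon, the receptor NOTCH2 was the most abundant member in siNTC cells. Its level was 12.6 ± 0.435 CPM per kb (SD, n = 2), followed by JAG1 at 2.65 ± 0.540, NOTCH1 at 2.59 ± 0.320 and NOTCH3 at 1.22. JAG1 and NOTCH1 differed by less than the spread of their libraries, while NOTCH2 stood above and NOTCH3 below both. The target genes were low, with HES1 at 0.445 ± 0.194, HEY1 at 0.115 ± 0.0493 and HEYL at 0.0775 ± 0.0656 CPM per kb. DLL1 at 0.207 ± 0.270, JAG2 at 0.138, HEY1 and HEYL could not be put in order beyond their spread. With siTAZ #1 the order changed, and HES1 at 3.94 ± 0.788 CPM per kb lay within the range of NOTCH1 at 3.59 ± 0.378 and JAG1 at 3.32 ± 0.0871. With siTAZ #2, NOTCH3 at 3.57 ± 0.0855 reached NOTCH1 at 3.39 ± 0.0320, and JAG1 fell in the order to 0.769 CPM per kb, beside HES1 at 0.782.

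**Figure D2:**
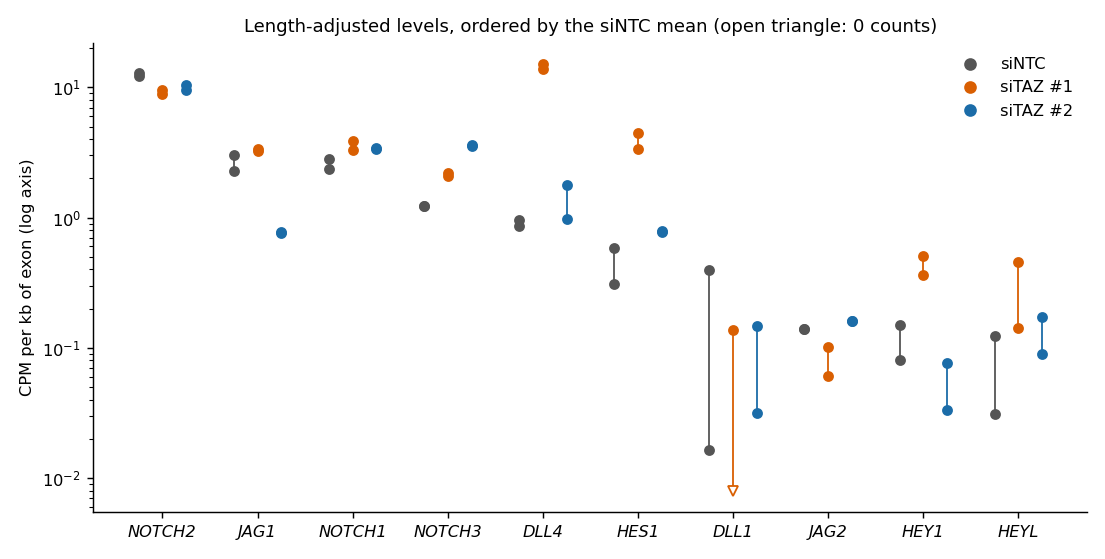
Levels of the 9 members and DLL4 in CPM per kb of exon on a log axis, ordered by the siNTC mean, with siNTC grey, siTAZ #1 orange and siTAZ #2 blue. Points are libraries, lines join the 2 libraries of a group, and the open triangle marks 0 counts. NOTCH2 is highest in siNTC at 12.6 CPM per kb, and DLL4 moves from 0.911 in siNTC to 14.5 with siTAZ #1.

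NOTCH1, on chromosome 9 of GRCh37 from 139388885 to 139440500 on the minus strand, had 29.6 and 35.3 CPM with siNTC, 48.4 and 41.7 with siTAZ #1, and 42.3 and 42.8 with siTAZ #2. All 4 siTAZ libraries lay above the controls. The change on the log2 scale was 0.47 ± 0.14 (SE, FDR = 0.0701) with siTAZ #1 and 0.39 ± 0.14 (FDR = 0.0952) with siTAZ #2, so neither passed the threshold. The difference between the siRNAs was 0.08, with a 95% confidence interval from -0.27 to 0.43. The rise with siTAZ #1 passed with DESeq2 (adjusted p = 0.0240), without the genes from RANGAP1 onwards (FDR = 0.0315) and without siTAZ #1 replicate 2 (FDR = 0.0151). That with siTAZ #2 passed without those genes (FDR = 0.0494) and without either siTAZ #1 library (FDR = 0.0297 without replicate 1 and 0.0277 without replicate 2), in the fit of 4 libraries (FDR = 0.0303) and in the exact test (FDR = 0.0212). With an offset for GC content, however, the change with siTAZ #2 was 0.06 on the log2 scale (FDR = 0.789) and the difference between the siRNAs 0.37 (FDR = 0.0798), and with siTAZ #1 the exact test gave FDR = 0.614.

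NOTCH2, a broadly expressed receptor on chromosome 1 from 120454176 to 120643366 on the minus strand, had 205 and 216 CPM with siNTC. Its level was 159 and 148 CPM with siTAZ #1 and 174 and 158 CPM with siTAZ #2, so the siTAZ libraries lay below the control libraries without overlap. NOTCH2 fell by 0.46 ± 0.09 on the log2 scale with siTAZ #1 (FDR = 0.0181) and by 0.34 ± 0.09 with siTAZ #2 (FDR = 0.0344). NOTCH2NL, a partial copy with nearly the same sequence that was picked after its values were seen, had 44.0 and 43.1 CPM with siNTC, 40.0 and 33.0 with siTAZ #1, and 40.3 and 35.2 with siTAZ #2. How reads were split between the copies is not given in the sources used here, so NOTCH2 counts are uncertain to that extent. With siTAZ #1 the threshold was missed once siNTC replicate 1 (FDR = 0.0975) or replicate 2 (FDR = 0.127) was removed, and by the exact test (FDR = 0.410). With siTAZ #2 it was missed whichever library of that comparison was removed, at an FDR of 0.115 and 0.167 without siNTC replicates 1 and 2 and of 0.0697 and 0.142 without siTAZ #2 replicates 1 and 2, and with an offset for GC content (FDR = 0.119).

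NOTCH3, the receptor known for its role in the mural cells of vessels, is on chromosome 19 from 15269849 to 15311806 on the minus strand. Both siNTC libraries had 11.5 CPM, against 20.7 and 19.6 CPM with siTAZ #1 and 33.0 and 34.2 CPM with siTAZ #2. The 3 groups did not overlap, and the spread within each was small beside the steps between them. The log2 fold change was 0.81 ± 0.13 (FDR = 0.0107) with siTAZ #1 and 1.55 ± 0.13 (FDR = 0.00120) with siTAZ #2. The siRNAs also differed, with NOTCH3 lower under siTAZ #1 than under siTAZ #2 by a log2 fold change of -0.74 ± 0.13 (FDR = 0.00980). The rise with siTAZ #2 passed in every alternative run, but that with siTAZ #1 missed the threshold once siNTC replicate 1 (FDR = 0.0857) or replicate 2 (FDR = 0.0827) was removed, and the difference between the siRNAs without siTAZ #2 replicate 1 (FDR = 0.0532) or replicate 2 (FDR = 0.0675). Both were also lost in the exact test, at FDR = 0.228 for siTAZ #1 and FDR = 0.186 for the difference. The size of the effect also depended on the processing. Over the alternatives the log2 fold change with siTAZ #2 fell as low as 1.22, against 1.55 in the full fit. The difference between the siRNAs shrank to as little as -0.45, against -0.74. Neither of these extremes came from leaving out a library.

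Because NOTCH3 is also a marker of mural cells, 7 other mural markers were measured. Their summed level was 688 to 736 CPM with siNTC, 763 to 841 with siTAZ #1 and 404 to 408 with siTAZ #2, of which CSPG4 and ACTG2 made up most. With siTAZ #1, where NOTCH3 also rose, 0 of the 7 markers passed FDR 0.05 against siNTC, where 20.6% of all genes did. With siTAZ #2, where NOTCH3 was highest, 3 of the 7 were lower than with siNTC and 1, DES, was higher. In that comparison 28.5% of all genes passed in either direction. Their part in the NOTCH3 level was not tested. All 9 fibroblast markers were present in every group, summing to 34878 to 34966 CPM with siNTC, 23174 to 24049 with siTAZ #1 and 27180 to 28939 with siTAZ #2. The collagen genes COL1A1, COL1A2 and COL3A1 and the filament gene VIM made up most of this sum. Of the 9, 4 were lower and 2 higher with siTAZ #1 than with siNTC, where 20.6% of all genes passed in either direction. With siTAZ #2, 5 were lower and 2 higher, where 28.5% of all genes passed. The higher ones were PDGFRA (3.30-fold, FDR = 0.000843) and PDGFRB (1.31-fold, FDR = 0.0201) with siTAZ #1, and THY1 (1.41-fold, FDR = 0.0105) and PDGFRB (1.46-fold, FDR = 0.00513) with siTAZ #2. In bulk RNA, fewer cells of a kind and less RNA per cell cannot be told apart.

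Among the ligands, JAG1, on chromosome 20 from 10618332 to 10654647 on the minus strand, had 21.0 and 28.1 CPM with siNTC. It stood at 30.3 and 31.5 CPM with siTAZ #1, just above the controls, and at 7.10 and 7.19 CPM with siTAZ #2, well below them. With siTAZ #2 JAG1 fell by 1.78 ± 0.18 on the log2 scale (FDR = 0.00207). With siTAZ #1 the log2 fold change was 0.33 ± 0.18 (FDR = 0.244), with a 95% confidence interval from -0.11 to 0.76. Between the siRNAs the log2 difference was 2.11 ± 0.19 (FDR = 0.00140), and this and the fall with siTAZ #2 passed in every alternative run.

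JAG2, on chromosome 14 from 105607319 to 105635161, was read at 6 to 22 counts per library. Its level was 0.888 and 0.884 CPM with siNTC, 0.387 and 0.644 with siTAZ #1, and 1.03 in both siTAZ #2 libraries. Its log2 fold change was -0.73 ± 0.49 (FDR = 0.348) with siTAZ #1 and 0.21 ± 0.48 (FDR = 0.782) with siTAZ #2, and no difference was detectable at this depth. DLL1, on chromosome 6 from 170591294 to 170615653, had 24 and 1 counts with siNTC, 0 and 17 with siTAZ #1, and 12 and 2 with siTAZ #2. The replicates of DLL1 differed by more than the groups did, and no comparison was made. Over both libraries of a group, 3 counts correspond to 0.0949 CPM with siNTC, 0.0624 with siTAZ #1 and 0.0791 with siTAZ #2, a limit that covers counting error only.

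DLL4, a Delta-like ligand outside the 9 members that is best known from arterial endothelium, showed the largest change of any Notch pathway gene tested with siTAZ #1. It had 4.56 and 4.10 CPM with siNTC, 71.8 and 65.6 with siTAZ #1, and 4.63 and 8.40 with siTAZ #2. DLL4 was 15.8-fold higher with siTAZ #1 than with siNTC, a log2 fold change of 3.98 ± 0.31 (FDR = 0.00135), whereas with siTAZ #2 it was 0.58 ± 0.29 (FDR = 0.185). The siRNAs differed by 3.40 ± 0.30 on the log2 scale (FDR = 0.00140). Per kb of exon, DLL4 stood below JAG1 in siNTC cells, at 0.911 ± 0.0688 against 2.65 ± 0.540 CPM per kb, and above it with siTAZ #1, at 14.5 ± 0.923 against 3.32 ± 0.0871. Of 7 endothelial markers, PECAM1, CDH5, KDR and CLDN5 were under 1 CPM in every library, and TEK, at 24.0 to 44.8 CPM, made up most of their summed level. That sum was 42.7 to 43.3 CPM with siNTC, 47.0 to 48.3 with siTAZ #1 and 27.3 to 32.7 with siTAZ #2. The other markers, VWF and TIE1, had 0.571 to 2.96 and 0.561 to 1.33 CPM. Of the 3 endothelial markers tested, TEK alone passed with siTAZ #2, where 28.5% of all genes did, and it fell by 0.67 ± 0.12 on the log2 scale (FDR = 0.0127). VWF went the other way, at 1.52 ± 0.65 (FDR = 0.137), and TIE1 had 0.63 ± 0.63 (FDR = 0.501). With siTAZ #2 the DLL4 rise passed only without siTAZ #2 replicate 1, at a log2 fold change of 0.95 (FDR = 0.0329).

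HES1, the classic target and a repressor of differentiation genes, is on chromosome 3 from 193853937 to 193856521 on the plus strand. It was read at 10 and 19 counts with siNTC, 108 and 302 with siTAZ #1, and 34 and 27 with siTAZ #2, or 0.634 and 1.20, 6.97 and 9.26, and 1.59 and 1.63 CPM. Both siTAZ #1 libraries lay far above the other 4, and the siTAZ #2 libraries lay just above the controls. HES1 changed by a log2 fold change of 3.14 ± 0.38 (FDR = 0.00485) with siTAZ #1 and 0.81 ± 0.39 (FDR = 0.176) with siTAZ #2. The 95% confidence interval with siTAZ #2 ran from -0.15 to 1.76. Pooled over each group, the exact Poisson interval at the 0.95 level was 0.614 to 1.32 CPM with siNTC, 7.72 to 9.39 with siTAZ #1 and 1.23 to 2.06 with siTAZ #2, which covers counting error only and leaves out the spread between libraries.

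Directly compared, HES1 was 5.04-fold higher with siTAZ #1 than with siTAZ #2, a log2 difference of 2.33 ± 0.36 (FDR = 0.00656). The rise with siTAZ #1 over siNTC passed in every alternative run. The difference between the siRNAs missed the threshold without siTAZ #2 replicate 1 (FDR = 0.0511) and without siTAZ #2 replicate 2 (FDR = 0.0523), at 2.31 and 2.36 on the log2 scale. The window of HES1, printed above, holds 2 matches to TGGGAA.

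HEY1, a repressor of the related HEY family, is on chromosome 8 from 80674606 to 80680092 on the minus strand. It had 0.824 and 0.442 CPM with siNTC, 2.77 and 1.99 with siTAZ #1, and 0.421 and 0.181 with siTAZ #2, from between 3 and 65 counts per library. As for HES1, both siTAZ #1 libraries were the highest, but here the siTAZ #2 libraries lay below the controls. Against siNTC the log2 fold change was 1.89 ± 0.56 (FDR = 0.0651) with siTAZ #1 and -1.02 ± 0.64 (FDR = 0.288) with siTAZ #2. The siRNAs differed by 2.91 ± 0.60 on the log2 scale (FDR = 0.0169), or by 2.48 with FDR = 0.0855 once siTAZ #2 replicate 2 was removed. With siTAZ #1 against siNTC the threshold was passed in the exact test (FDR = 0.0272) and without the genes from RANGAP1 onwards (FDR = 0.0338).

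HEYL, the third member of that family, is on chromosome 1 from 40089107 to 40105315 on the minus strand. It had 0.127 and 0.505 CPM with siNTC, 1.87 and 0.583 with siTAZ #1, and 0.701 and 0.362 with siTAZ #2. The siTAZ #1 libraries lay above the controls, but differed from each other by more than the siTAZ #2 libraries did from siNTC. HEYL had a log2 fold change of 1.88 ± 0.92 (FDR = 0.207) with siTAZ #1, with a 95% confidence interval from -0.39 to 4.14, and 0.76 ± 0.97 (FDR = 0.602) with siTAZ #2. It passed with siTAZ #1 only without siTAZ #1 replicate 2 (log2 fold change 2.54, FDR = 0.0472). When a library was left out, the log2 fold change ran from 0.87 without siTAZ #1 replicate 1 to 3.15 without siNTC replicate 2, and with siTAZ #2 from 0.079 without siNTC replicate 1 to 2.02 without siNTC replicate 2.

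**Figure D3:**
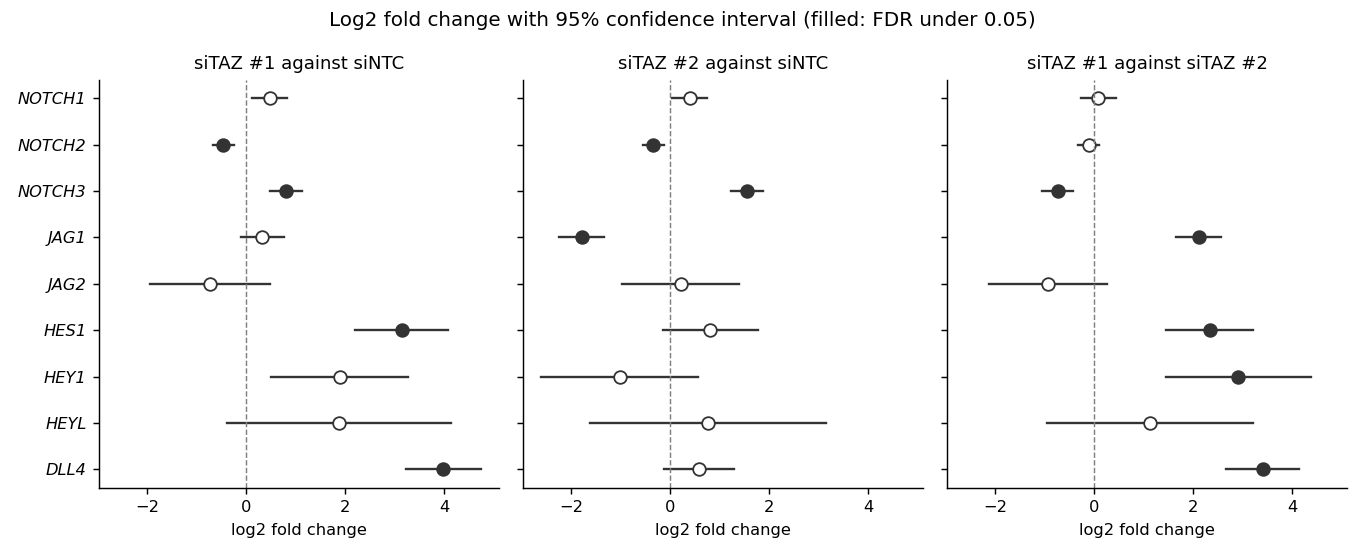
Log2 fold change of the 8 tested members and DLL4 in the comparison of each siRNA with siNTC and of siTAZ #1 with siTAZ #2. Lines are 95% confidence intervals, and filled points passed FDR 0.05. NOTCH2 and NOTCH3 are filled on the same side of 0 with both siRNAs, HES1 and DLL4 only with siTAZ #1, at 3.14 and 3.98, and JAG1 only with siTAZ #2, at -1.78.

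Of 8 other target genes, HES5, HEY2, HES3, HES7 and NRARP did not pass the filter, and 3 were tested. HES6, the most abundant of them per kb in each group, had 2.54 and 1.70 CPM with siNTC, 5.03 and 3.93 with siTAZ #1, and 2.99 and 2.60 with siTAZ #2. Its log2 fold change was 1.07 ± 0.32 (FDR = 0.0684) with siTAZ #1 and 0.40 ± 0.33 (FDR = 0.408) with siTAZ #2. NOTCH4, the remaining receptor, had 0.323 to 1.96 CPM over the 6 libraries and a log2 fold change of 0.46 ± 0.67 (FDR = 0.666) with siTAZ #1 and 1.65 ± 0.66 (FDR = 0.116) with siTAZ #2.

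The rest of the pathway was read from a list of 65 further genes, covering receptors, ligands and targets outside the 9 members, receptor cleavage and glycosylation, the nuclear complex, corepressors, and receptor and ligand trafficking. Of these, 55 were tested. With siTAZ #1, 11 were higher and 4 lower, where 10.8% and 9.78% of all genes were. With siTAZ #2, 12 were higher and 11 lower, where 14.1% and 14.4% of all genes were. Between the siRNAs, 12 were higher and 6 lower with siTAZ #1, where 15.2% and 13.4% of all genes were. The median log2 fold change of the list was 0.13 with each siRNA, against 0.02 with siTAZ #1 and 0.01 with siTAZ #2 over all genes tested. The 15 calls with siTAZ #1 became 3 in the exact test, and the 18 between the siRNAs became 7. These counts and the 23 with siTAZ #2 also fell when some of the libraries were left out. The share of all genes called under these alternatives was not counted. Whichever library was left out, DLL4 passed with siTAZ #1, RBPJ, GXYLT1, MIB1, FURIN, HDAC1 and DTX4 passed with siTAZ #2, and DLL4, FURIN, HDAC1, DTX4, MAML3, NUMB and XXYLT1 passed between the siRNAs.

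In the nuclear complex, RBPJ itself rose with both siRNAs. It had 173 and 168 CPM with siNTC, 313 and 390 with siTAZ #1, and 413 and 354 with siTAZ #2. All 4 siTAZ libraries lay well above the controls, at a log2 fold change of 1.05 ± 0.13 (FDR = 0.00551) with siTAZ #1 and 1.17 ± 0.13 (FDR = 0.00277) with siTAZ #2. The log2 difference between the siRNAs was -0.13, with a 95% confidence interval from -0.45 to 0.20. MAML3, a Mastermind coactivator, was higher with siTAZ #1, at 32.3 and 34.2 CPM against 16.4 and 18.6 with siNTC and 14.0 and 15.9 with siTAZ #2. Its log2 fold change was 0.93 ± 0.15 (FDR = 0.0106) with siTAZ #1, and it was 1.16 ± 0.15 higher than with siTAZ #2 (FDR = 0.00389). SNW1, the most abundant gene of this role per kb in each group, had a log2 fold change of 0.13 ± 0.12 (FDR = 0.473) and -0.08 ± 0.12 (FDR = 0.648) with siTAZ #1 and siTAZ #2. Without siNTC replicates 1 and 2 the FDR with siTAZ #1 was 0.0636 and 0.0673 for RBPJ and 0.0900 and 0.0668 for MAML3.

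Among the corepressors, HDAC1, a histone deacetylase that was the most abundant of them per kb with siNTC and with siTAZ #1 but not with siTAZ #2, had 126 CPM in both siNTC libraries, 168 and 136 with siTAZ #1, and 40.0 and 53.9 with siTAZ #2. It fell by 1.42 ± 0.17 on the log2 scale with siTAZ #2 (FDR = 0.00324). CTBP1 rose with both siRNAs, by 0.39 ± 0.10 (FDR = 0.0389) and 0.52 ± 0.10 (FDR = 0.0124). For CTBP1 the FDR with siTAZ #1 was 0.198 and 0.183 without siNTC replicates 1 and 2, 0.0772 without siTAZ #1 replicate 2, and 0.0759 and 0.0775 without siTAZ #2 replicates 1 and 2. With siTAZ #2 it was 0.0962, 0.0893, 0.0693 and 0.0589 without siNTC and siTAZ #2 replicates 1 and 2 in turn, and 0.0823 with an offset for GC content. Of the 12 corepressor genes, 3 passed with siTAZ #1 and 5 with siTAZ #2, against 20.6% and 28.5% of all genes tested.

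Of the 9 genes of receptor cleavage, APH1A, a subunit of gamma-secretase and the most abundant of them per kb in siNTC cells, fell with both siRNAs, by 0.53 ± 0.12 (FDR = 0.0281) and 0.63 ± 0.12 (FDR = 0.0128) on the log2 scale. FURIN, the convertase that cuts the receptor precursor, went opposite ways. It had 137 and 133 CPM with siNTC, 105 and 94.1 with siTAZ #1, and 239 and 258 with siTAZ #2. The siTAZ #1 libraries lay below the controls and the siTAZ #2 libraries above them, with log2 fold changes of -0.44 ± 0.09 (FDR = 0.0226) and 0.88 ± 0.09 (FDR = 0.00201). The shedding proteases differed by siRNA, with ADAM10 higher by 0.53 ± 0.11 (FDR = 0.0231) with siTAZ #1 and ADAM17 higher by 0.71 ± 0.13 (FDR = 0.0106) with siTAZ #2. With siTAZ #1, the FDR without siNTC replicates 1 and 2 was 0.0662 and 0.154 for APH1A, 0.137 and 0.119 for FURIN, and 0.157 and 0.107 for ADAM10, and it lay between 0.0556 and 0.0615 for APH1A and ADAM10 without either siTAZ #2 library. With siTAZ #2, it was 0.0783, 0.0620 and 0.0788 for APH1A without siNTC replicate 2 and siTAZ #2 replicates 1 and 2, and 0.0858, 0.0719 and 0.0612 for ADAM17 without siNTC replicates 1 and 2 and siTAZ #2 replicate 2.

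Glycosylation of the receptor's EGF repeats tunes which ligand it answers to. Of the 7 tested genes of this role, 2 were higher and 0 lower with siTAZ #1, and 3 were higher and 1 lower with siTAZ #2. Against these stand 20.6% and 28.5% of all genes tested. LFNG and RFNG rose with siTAZ #2 by 1.13 ± 0.24 (FDR = 0.0195) and 0.50 ± 0.14 (FDR = 0.0423) on the log2 scale. With siTAZ #1 their log2 fold changes were 0.41 ± 0.24 (FDR = 0.281) and 0.36 ± 0.14 (FDR = 0.125). GXYLT1, a xylosyltransferase, rose with both siRNAs, from 20.8 and 21.9 CPM to 42.6 and 59.5 with siTAZ #1 (log2 fold change 1.26 ± 0.19, FDR = 0.00853) and 60.8 and 53.9 with siTAZ #2 (1.43 ± 0.19, FDR = 0.00420). XXYLT1, which extends the same sugar chain, fell with siTAZ #2 by 1.22 ± 0.21 (FDR = 0.00916), from 54.2 and 52.0 CPM to 18.5 and 27.2. POFUT1, the O-fucosyltransferase and the most abundant of this role per kb in each group, had a log2 fold change of -0.33 ± 0.11 (FDR = 0.0842) and -0.28 ± 0.11 (FDR = 0.107) with siTAZ #1 and siTAZ #2. Without siNTC replicates 1 and 2 the FDR was 0.0831 and 0.0750 for GXYLT1 with siTAZ #1 and 0.0650 and 0.0601 for XXYLT1 with siTAZ #2.

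In trafficking and ubiquitination, MIB1, the ubiquitin ligase that ligands need for their endocytosis, rose with both siRNAs. It had 40.7 and 37.9 CPM with siNTC, 61.9 and 79.5 with siTAZ #1, and 117 and 107 with siTAZ #2, so that the 3 groups did not overlap. Its log2 fold change was 0.85 ± 0.14 (FDR = 0.0126) with siTAZ #1 and 1.51 ± 0.15 (FDR = 0.00172) with siTAZ #2. NUMB, an endocytic inhibitor of Notch receptors, went opposite ways, with 87.5 and 77.4 CPM in siNTC, 118 and 116 with siTAZ #1 and 53.8 and 61.6 with siTAZ #2. The log2 fold change of NUMB was 0.51 ± 0.11 (FDR = 0.0270) with siTAZ #1 and -0.52 ± 0.11 (FDR = 0.0198) with siTAZ #2. DTX4, a Deltex ubiquitin ligase, had the highest siNTC mean of this role per kb, at 13.6 ± 0.971 CPM per kb, which differed from DTX3 at 13.2 ± 1.59 by less than their spread. With siTAZ #2 DTX4 stood at 5.15 CPM per kb, below DTX3 at 12.9, and fell by 1.40 ± 0.15 (FDR = 0.00229). AAK1, an endocytic kinase, and DTX3L, a Deltex relative, fell with both siRNAs, by 0.51 ± 0.10 and 0.62 ± 0.13 on the log2 scale with siTAZ #1 and by 0.58 ± 0.10 and 0.53 ± 0.13 with siTAZ #2. With siTAZ #1 the FDR without siNTC replicates 1 and 2 was 0.0859 and 0.103 for MIB1, 0.0961 and 0.173 for NUMB, 0.107 and 0.106 for AAK1, and 0.137 and 0.0778 for DTX3L. With siTAZ #2 it was 0.113 and 0.0596 for NUMB, 0.0616 in both cases for AAK1, and 0.149 and 0.0736 for DTX3L, and without siTAZ #2 replicate 1 it was 0.0949, 0.0525 and 0.130, while DTX3L had 0.0645 without siTAZ #2 replicate 2. In all, 7 of the 55 genes passed in the same direction with both siRNAs, as 9.23% of all genes did. Of the 55, 4 were higher with both (RBPJ, GXYLT1, MIB1 and CTBP1), where 5.49% of all genes were. FURIN and NUMB passed in opposite directions, and the share of all genes that did so was not counted.

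**Figure D4:**
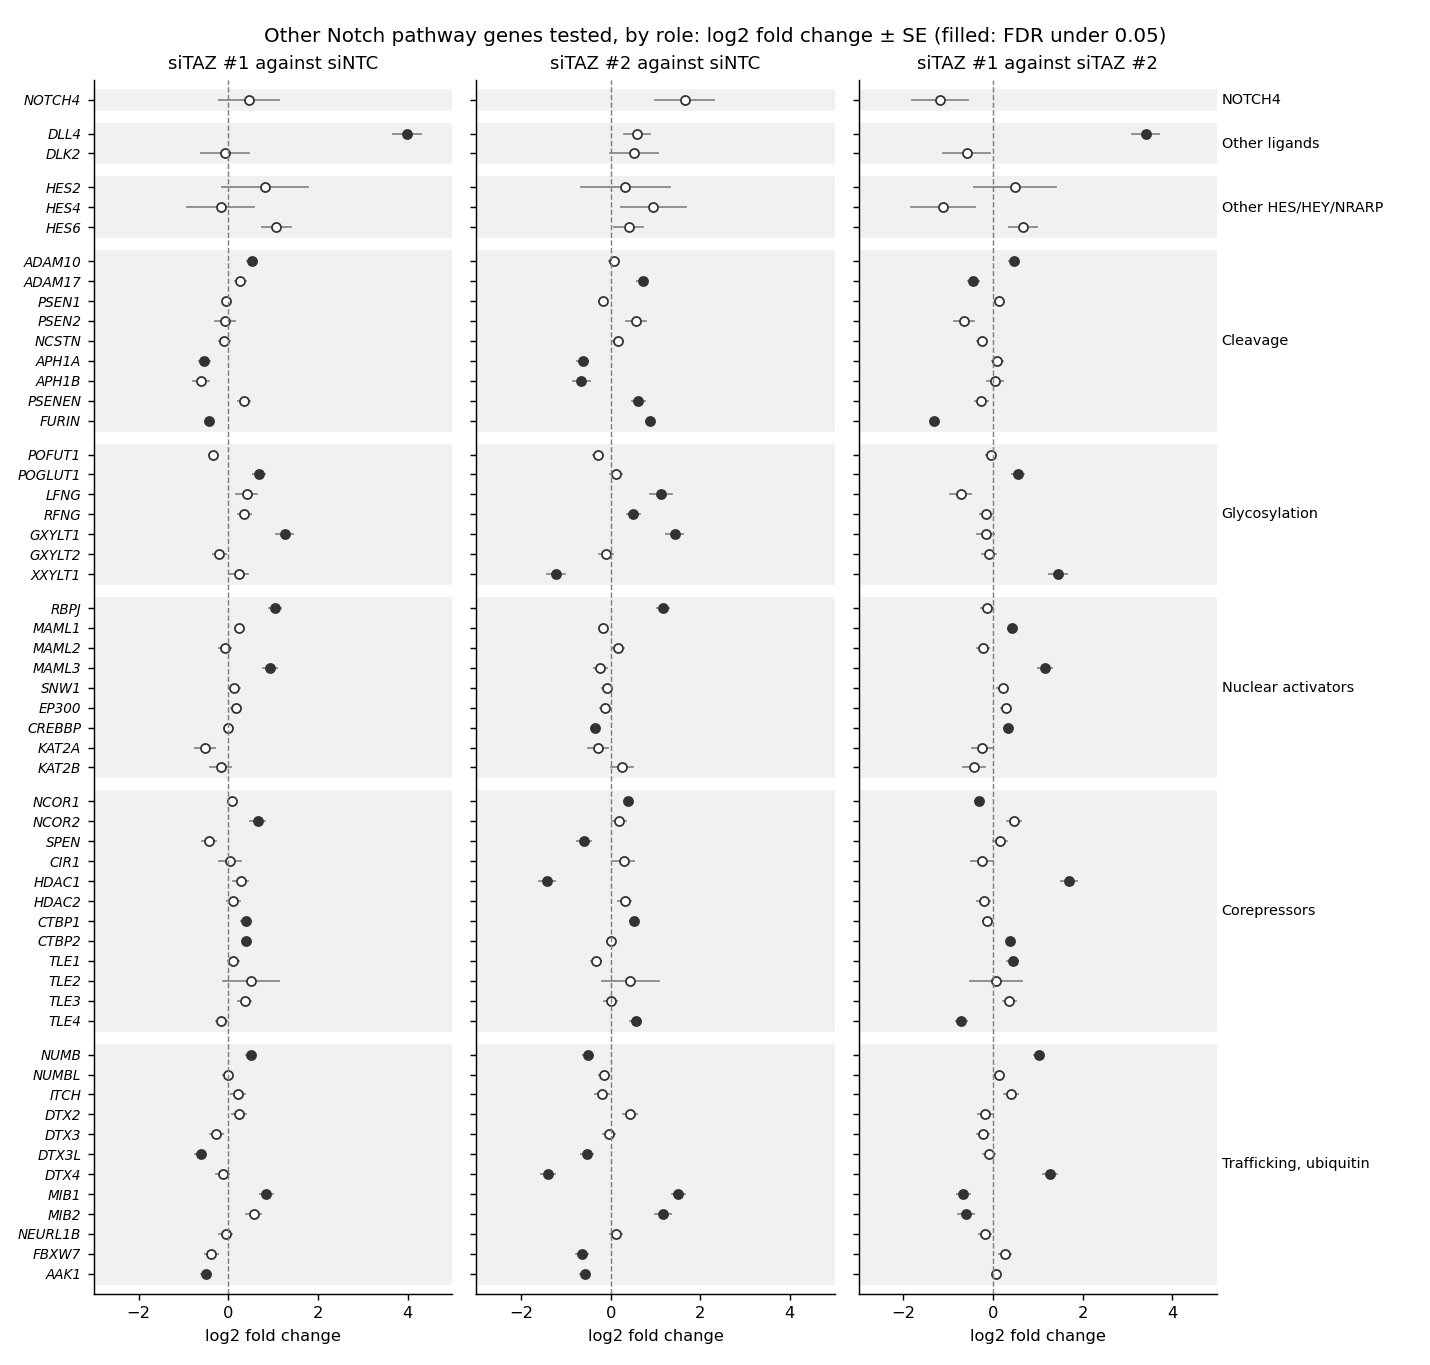
Log2 fold change ± SE of the 55 other Notch pathway genes tested, grouped by role, for each siRNA against siNTC and for siTAZ #1 against siTAZ #2. Filled points passed FDR 0.05. DLL4 at 3.98 with siTAZ #1 stands apart, RBPJ, GXYLT1 and MIB1 are to the right of 0 with both siRNAs, and FURIN and NUMB are on opposite sides.

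The genes whose pattern was most like that of the leading member of each role were found by Pearson's r of log2 CPM over the 6 libraries. For the receptor NOTCH2 they were DERA, PDZK1 and TMEM155, each at r = 0.992, with 130 genes at 0.95 or above. For the ligand JAG1 they were CLMP (r = 0.997), SLC2A3 and R3HDM2 (both 0.996), among 515 genes at 0.95 or above. For the target HES1 they were CD109 (r = 0.998), SDPR (0.997) and APPL1 (0.994), among 210. CD109, a surface protein, had 109 and 138 CPM with siNTC, 254 and 280 with siTAZ #1, and 145 and 149 with siTAZ #2. The 6 points share 3 groups and their depth, so these values describe a shared order of the groups only.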

How the data were processed

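RNA was measured in 6 HFL-1 libraries sequenced on an Ion Proton. Reads were mapped to hg19 by TMAP and assigned to genes by HTSeq 0.6.1, as the submitters' processing notes and the methods state, and the authors deposited the resulting raw counts, not normalized. Strand and overlap settings are not given in the sources used here, so reads of overlapping antisense genes cannot be told apart. Of 23368 entries, 13 named by a date instead of a symbol were dropped, with 0.0458% to 0.0506% of each library's counts. Positions and exon lengths on GRCh37, the same build as hg19, were matched to 21478 symbols (1922 by synonym), and promoter windows came from RefSeq (GRCh38.p14).

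Genes were filtered with filterByExpr by group, scaled by TMM and compared by edgeR 4.0.16 (R 4.3.3), whose quasi-likelihood test was applied to 1 model of all 6 libraries. The p-values were adjusted after Benjamini-Hochberg over 14053 genes and a threshold of FDR 0.05. SE is the absolute log2 fold change over the square root of F. The methods name edgeR but not which of its tests. The spread is shared over groups and moderated over genes, since groups have 2 libraries, and no two-sided permutation of 2 against 2 libraries goes below p = 0.333. Replicates within a group differed by more than sampling noise.

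The members, gene lists, tests and alternatives were chosen with earlier results of these data known. The genes named are WWTR1, all members, pathway genes that passed with both siRNAs or between them, the gene of each role most abundant per kb with siNTC, the 3 genes with the highest r (log2 of CPM plus 0.5) for the leading member of each role, and L3MBTL2, RANGAP1 and ZC3H7B. LFNG and RFNG are named as well, picked after their values were seen, and were not followed through the alternatives. Alternatives were DESeq2 1.42.0, the exact test on 4 libraries, scaling by RLE or by library totals, no low-count filter, a minimum mean count of 50, fits of 4 libraries, a replicate block, removal of each library in turn, removal of all genes from RANGAP1 onwards, an offset for GC content (known for 95.6% of genes tested), FDR 0.1 and a longer RBPJ motif.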

Additional observations from a re-analysis of the deposited data

Results flagged for a closer look

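The siRNAs differed from each other, by the test of the difference itself in edgeR's quasi-likelihood fit (FDR under 0.05), for 4 members. On the log2 scale of siTAZ #1 minus siTAZ #2 the difference was -0.74 for NOTCH3, 2.11 for JAG1, 2.33 for HES1 and 2.91 for HEY1.

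Among the other pathway genes the same test set apart 18. The difference was 3.40 for the ligand DLL4, 0.46 for ADAM10, -0.44 for ADAM17 and -1.32 for FURIN among the proteases, and 0.56 for POGLUT1 and 1.45 for XXYLT1 among the glycosyltransferases. In the nuclear complex it was 0.42 for MAML1, 1.16 for MAML3 and 0.34 for CREBBP. Among the corepressors it was -0.31 for NCOR1, 1.70 for HDAC1, 0.39 for CTBP2, 0.44 for TLE1 and -0.71 for TLE4. For trafficking it was 1.02 for NUMB, 1.27 for DTX4, -0.66 for MIB1 and -0.60 for MIB2. Of all genes tested, 28.6% differed between the siRNAs by the same test.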

How the results depend on the processing

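Of the 18 alternatives, all but the longer RBPJ motif recomputed values of single genes, 1300 in all. Of these, 1078 kept their direction and their side of the threshold, 205 lost a call, 15 gained one and 2 changed sign. Other pathway genes except DLL4 entered only in comparisons where the full fit called them. They could therefore lose a call but not gain one, so the balance of lost and gained calls partly follows from that choice. NOTCH1 between the siRNAs ran from -0.029 to 0.19 when a library was left out, with the low value without siTAZ #1 replicate 1, and was 0.37 with the GC content offset, the highest value over its alternatives, and JAG2 with siTAZ #2 was -0.16 with the GC content offset, where neither was called. The difference of WWTR1 between the siRNAs was -0.70 in the exact test, with FDR = 0.240. Members called with siTAZ #1 numbered 1 to 5 when a library was left out, 5 without the genes from RANGAP1 onwards and 5 at FDR 0.1, and those between the siRNAs 1 to 4. Other pathway genes called with siTAZ #1 numbered 3 in the exact test and 1 to 19 when a library was left out, with siTAZ #2 6 to 27, and between the siRNAs 7 in the exact test, 9 in the fit of 4 libraries and 7 to 21. Fewer libraries leave fewer residual degrees of freedom than the 3 of the full fit, and the share of all genes called under each alternative was not counted.

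The replicate numbers were not used as pairs in the main fit. The deviations of equally numbered libraries correlated at -0.00069, 0.0109 and -0.0769 over 14053 genes. These values show no shift shared over genes, but cannot tell whether equally numbered libraries were handled together. With a replicate block the other pathway genes called were 6 with siTAZ #1, 14 with siTAZ #2 and 10 between the siRNAs, and among the members only NOTCH2 with siTAZ #2 (FDR = 0.0708) lost its call. At 2 to 65 counts per library for HEY1, HEYL and JAG2, depth limits what could be detected.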
